A study of Homo sapiens with 24 samples.

Results

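PANC1 cells, an established human pancreatic ductal adenocarcinoma line, were exposed to SR4, to lonidamine, to both compounds together or to vehicle, and the 12 PANC1 libraries form a 2 by 2 design in which the joint action of the compounds can be measured gene by gene. They are 12 of the 24 libraries of the series, the other 12 being the BXPC3 pancreatic cancer line under the same treatments. The quantity described is the interaction, defined as combination minus SR4 minus lonidamine plus vehicle on the log2 scale. All 25168 genes of the PANC1 count table were considered, and 12514 had enough counts to be tested. An interaction of 0 means that the combination changed a gene by the product of the 2 single fold changes. A positive interaction means that the combination level lay above that product, and a negative one that it lay below it.

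The groups were the combination, SR4 at 5 uM, lonidamine at 300 uM and vehicle, each given for 24 h with 3 libraries per group. The labels give no separate doses for the combination. They also do not say whether the 3 libraries of a group came from separate cultures, so p-values measure the spread between these libraries, which may be technical. PANC1 is a single line, all groups were grown in low glucose DMEM with 10% serum, and 1 dose of each compound was used.

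SR4 has been described as a mitochondrial uncoupler, an agent that lets protons return across the inner mitochondrial membrane without making ATP. Lonidamine inhibits entry of pyruvate into mitochondria through the pyruvate carrier, export of lactate by monocarboxylate transporters of the plasma membrane, and respiratory complex II. Cells meet such energy stress in part through the integrated stress response, in which phosphorylation of the initiation factor eIF2alpha slows protein synthesis while the transcription factor ATF4 raises genes of amino acid supply and of redox defence. Where 2 agents each drive such a pathway, a log2 interaction shows whether their effects multiply, and the levels in CPM, counts scaled to the library total, show what the combined state is.

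Each library held between 8873041 and 11822495 gene counts. The biological coefficient of variation between libraries of a group was 3.79%, so small differences were measurable for genes of ordinary abundance. Among the line's markers, VIM averaged 2790.1 CPM in the combination, 4614 with SR4, 3431 with lonidamine and 4199.8 with vehicle. SMAD4 was detected in every library, and CDH1 had at most 19.3 CPM in any. The summed line markers ran from 3733 to 3798 CPM in the combination, from 6261 to 7058 CPM with SR4, from 4447 to 4529 CPM with lonidamine and from 7833 to 8078 CPM with vehicle. Other cell types left little trace by their markers, with COL1A2, DCN and CD3E at 0 in all 12 libraries. The summed fibroblast markers, nearly all COL1A1, ran from 17.3 to 18.5 CPM in the combination, from 13.3 to 15.8 CPM with SR4, from 32.2 to 35.9 CPM with lonidamine and from 85.2 to 91.1 CPM with vehicle. The summed immune markers, nearly all CD68, ran from 207 to 216 CPM in the combination, from 186 to 219.8 CPM with SR4, from 141 to 144 CPM with lonidamine and from 119.7 to 128 CPM with vehicle. In these bulk libraries, fewer cells in a given state and less RNA per cell cannot be told apart.

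Most tested genes had a called interaction. By the quasi-likelihood test of edgeR with p-values adjusted after Benjamini and Hochberg, which gave every adjusted p on the log2 scale, 3858 genes had a positive interaction at adjusted p 0.05, which is 30.8% of those tested, and 3760 had a negative one, which is 30%. A positive interaction of at least 1 log2 unit was called for 831 genes (6.64%), and a negative one of that size for 1036 genes (8.28%). The median interaction over all tested genes was -0.0088, and the quartiles were -0.44 and 0.41. The combination libraries were all above the 9 other libraries for 2759 genes (22%) and all below them for 2387 genes (19.1%). Of the genes with a positive interaction, 41.1% had their combination level above all 9 others and 7.23% below them. Of the genes with a negative interaction, 33.7% had it below all 9 others and 8.51% above them. A called interaction therefore did not by itself place the combination outside the range of the other groups. Counts given for each list below stand against the shares of all tested genes, 30.8% positive and 30% negative.

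**Figure D1:**
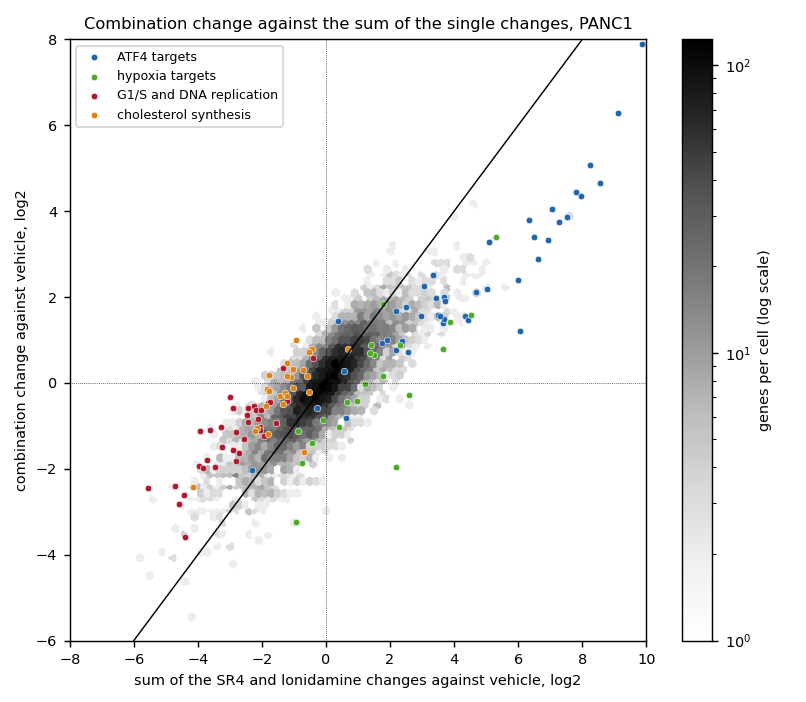
Change of each tested gene in the combination against vehicle (y axis, log2) plotted against the sum of its SR4 and lonidamine changes against vehicle (x axis, log2), with tested genes as grey cells and 4 gene lists as coloured points. Most ATF4 and hypoxia targets lie below the line of equal values, and nearly all DNA replication and cholesterol genes lie above it. The axes leave out 18 genes, INHBE among them.

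Genes of the integrated stress response had the most negative median of all lists examined. Of the 43 tested ATF4 targets, 40 had a negative interaction and 2 a positive one, with a list median of -2.02. Their median change against vehicle was 1.98 in the combination, 2.18 with SR4 and 2.13 with lonidamine, all on the log2 scale. With each compound alone these genes thus stood, by the median, at least as high as in the combination. Members differed, since the combination libraries were above all 9 others for 13 of the 43 and below them for 2. These counts stand against 22% and 19.1% of all tested genes. The summed level ran from 12650 to 12670 CPM in the combination, from 12470 to 12640 CPM with SR4 and from 11830 to 12010 CPM with lonidamine. On the linear scale, 35 of the 43 fell short of the sum of the single increments and 4 exceeded it, against 26.5% and 36.9% of all tested genes.

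ATF4 itself, the transcription factor of the response, had 594, 604 and 594 CPM in the combination, 558, 565 and 553 CPM with SR4, 580.4, 575 and 574 CPM with lonidamine and 162, 159.6 and 146 CPM with vehicle. All treated libraries lay between 553 and 604 CPM, far above every vehicle library. The interaction of ATF4 was -1.79 ± 0.052 (SE, adjusted p = 4.76e-21). TRIB3, a pseudokinase that feeds back on the response, had 498, 487 and 491 CPM in the combination, 539.9, 566 and 541 CPM with SR4, 258, 258 and 263 CPM with lonidamine and 18.8, 22.6 and 17.1 CPM with vehicle. The combination was below SR4 alone and above lonidamine alone, with an interaction of -3.89 ± 0.072 (SE, adjusted p = 4.53e-25). ASNS, asparagine synthetase, had 803, 793 and 821 CPM in the combination, 776, 752 and 803 CPM with SR4, 676, 686 and 674 CPM with lonidamine and 80.6, 81.7 and 67.3 CPM with vehicle, and its interaction was -3.10 ± 0.064 (SE, adjusted p = 3.81e-24). Its combination and SR4 libraries overlapped, and both groups stood above lonidamine.

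The promoters of ASNS and of CHAC1, the enzyme that degrades glutathione, are shown because both hold the letters of the composite element through which ATF4 and its partners are known to act. Sequences are from RefSeq on GRCh38.p14, run 5′ to 3′ on the gene's strand from 250 bases before to 50 bases after the gene's start, and capitals mark matches to TGATGNAA on either strand. The ASNS window is chr7:97872359-97872658 on the - strand and the CHAC1 window is chr15:40953221-40953520 on the + strand.
ASNS: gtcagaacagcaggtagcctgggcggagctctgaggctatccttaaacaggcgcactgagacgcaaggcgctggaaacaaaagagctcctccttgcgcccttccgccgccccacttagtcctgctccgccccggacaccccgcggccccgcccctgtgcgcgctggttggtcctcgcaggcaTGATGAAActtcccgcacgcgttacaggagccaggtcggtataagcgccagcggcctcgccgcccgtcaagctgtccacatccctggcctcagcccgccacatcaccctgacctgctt
CHAC1: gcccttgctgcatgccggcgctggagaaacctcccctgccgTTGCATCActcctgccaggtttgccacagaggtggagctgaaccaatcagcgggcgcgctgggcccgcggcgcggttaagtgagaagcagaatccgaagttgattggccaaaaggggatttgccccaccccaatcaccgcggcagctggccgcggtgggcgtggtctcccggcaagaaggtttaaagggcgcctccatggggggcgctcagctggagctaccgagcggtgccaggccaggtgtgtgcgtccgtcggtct
This motif was present in 8 of the 35 tested ATF4 targets that matched a RefSeq promoter, and in 3.62% of all 35116 promoters. The match is a description of letters and not evidence of binding.

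CHAC1 had 80.7, 87.6 and 87.9 CPM in the combination, 61.6, 57.6 and 54.9 CPM with SR4, 74.3, 74.2 and 73.4 CPM with lonidamine and 4.56, 4.15 and 3.67 CPM with vehicle. Here the combination was the highest group, yet its interaction was -3.60 ± 0.12 (SE, adjusted p = 5.46e-20), since a product of the single changes would have given 1040.3 CPM. DDIT3, the pro-apoptotic factor CHOP, was also highest in the combination, with 271, 279 and 275 CPM in the combination, 243, 256 and 249 CPM with SR4, 142, 147 and 148 CPM with lonidamine and 15.7, 18.2 and 15.7 CPM with vehicle and an interaction of -3.005 ± 0.071 (SE, adjusted p = 5.51e-23). SESN2, an inhibitor of mTORC1 signalling, was highest with lonidamine alone, at 189, 195 and 193 CPM, against 168, 173 and 175 CPM in the combination, 134, 129.97 and 135 CPM with SR4 and 11.99, 14.5 and 12.2 CPM with vehicle. PCK2, the mitochondrial form of phosphoenolpyruvate carboxykinase, and NUPR1, a stress-induced chromatin factor, had interactions of -3.73 and -3.64. The serine synthesis enzymes PHGDH and PSAT1 had interactions of -2.56 and -2.26, and their lonidamine libraries were the highest. The cystine carrier SLC7A11 averaged 259 CPM in the combination, 165 with SR4, 192 with lonidamine and 11.9 with vehicle, with an interaction of -3.35. INHBE and FGF21 had no counts in any vehicle library, so their fitted interactions carry no size. With a floor of 3 counts per vehicle library, the interaction was -2.63 for INHBE and 2.88 for FGF21, and the list median stayed at -2.02. FGF21 was not called (adjusted p = 0.293), and its direction depends on that floor.

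GDF15, a hormone secreted by stressed cells and also a p53 target, had the most negative interaction of any gene that averaged 3 or more in log2 CPM. It had 64.96, 71.3 and 63.8 CPM in the combination, 247, 268 and 245 CPM with SR4, 226, 211 and 222 CPM with lonidamine and 30.04, 29.4 and 27.1 CPM with vehicle. The single treatments were far above the combination, which in turn was above vehicle, with no overlap between the combination and any other group. The interaction was -4.86 ± 0.076 (SE, adjusted p = 9.66e-27), and the linear departure was -377 ± 7.38 CPM (SE, adjusted p = 4.11e-24 by the Wald test on the fitted group levels). The positive members were ALDH18A1, the first enzyme of proline synthesis, at 1.06, and the transcription factor ATF5 at 0.28. ALDH18A1 had 415, 414 and 405 CPM in the combination, 209.9, 213 and 209.7 CPM with SR4, 132, 147 and 142 CPM with lonidamine and 151, 150.1 and 149.8 CPM with vehicle, with the combination above SR4, SR4 above vehicle and lonidamine below vehicle.

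**Figure D2:**
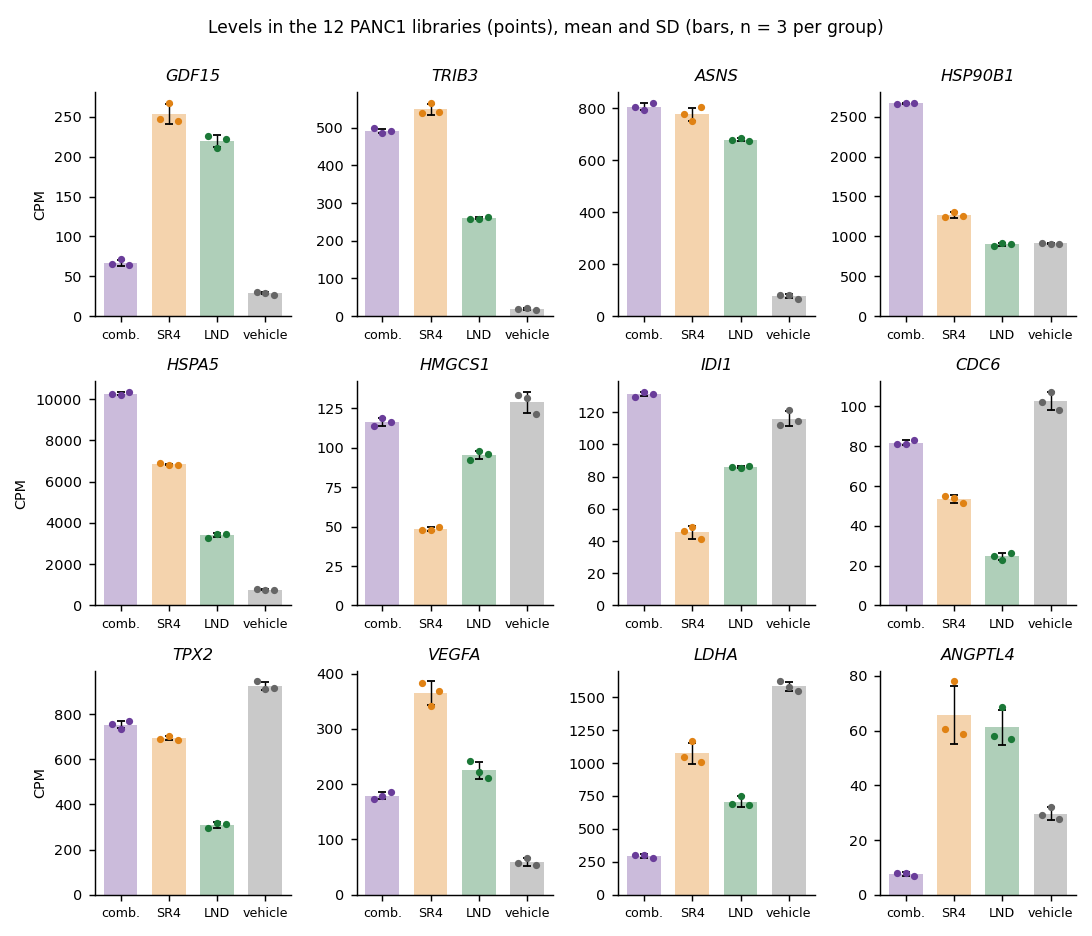
CPM (y axis, linear from 0) of 12 genes in the combination, SR4, lonidamine (LND) and vehicle groups, with the 3 libraries of each group as points, bars for the mean and whiskers for the SD. GDF15, VEGFA and ANGPTL4 are lower in the combination than with SR4 alone, HSP90B1 is highest in the combination, and CDC6 and TPX2 are lowest with lonidamine alone.

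Aminoacyl-tRNA synthetases, many of which are themselves ATF4 targets, divided. Of 20 tested, 11 had a negative and 6 a positive interaction (55% and 30%), with a median of -0.50. The glycyl enzyme GARS averaged 1159 CPM in the combination, 1048 with SR4, 1184 with lonidamine and 308 with vehicle (interaction -1.80). The arginyl enzyme RARS averaged 299.8 CPM in the combination, 148 with SR4, 186 with lonidamine and 186 with vehicle (interaction 1.01).

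The endoplasmic reticulum (ER) chaperones took another course. This branch of the unfolded protein response, run by ATF6 and XBP1, raises the folding capacity of the ER. Of the 24 tested members, 16 had a positive and 6 a negative interaction, with a median of 0.36. The combination libraries exceeded all 9 others for 17 of the 24, against 22% of all tested genes. HSP90B1, the ER-resident HSP90 chaperone also called GRP94, had 2655, 2675 and 2668 CPM in the combination, 1243, 1311 and 1251 CPM with SR4, 880.2, 917 and 899 CPM with lonidamine and 918, 908 and 907 CPM with vehicle. The SR4 libraries lay above vehicle, the lonidamine libraries overlapped it, and the combination stood above every other library. Its interaction was 1.09 ± 0.043 (SE, adjusted p = 3.54e-18).

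MANF, a secreted factor of the stressed ER, had 103, 104 and 102 CPM in the combination, 39.2, 39.3 and 47.95 CPM with SR4, 32.9, 37.05 and 37.997 CPM with lonidamine and 42.6, 44.5 and 39.9 CPM with vehicle. The SR4 libraries overlapped vehicle, the lonidamine libraries lay just below it, and the combination was above all others (interaction 1.51 ± 0.099, adjusted p = 2.81e-13). DNAJC3, a co-chaperone that also restrains the eIF2alpha kinase PERK, had 282, 268 and 278 CPM in the combination, 84.6, 95.5 and 88.3 CPM with SR4, 107, 120.4 and 117 CPM with lonidamine and 94.5, 90.01 and 88.6 CPM with vehicle, with an interaction of 1.29 ± 0.07 (SE, adjusted p = 4.43e-15). DNAJB9 and DNAJB11, further co-chaperones, had interactions of 0.54 and 0.80, and SDF2L1, which works in the same folding complex, had 1.67. The 6 negative members were ERN1 at -1.93, HSPA5 at -1.56, HYOU1 at -0.51, HERPUD1 at -0.47, SEL1L at -0.47 and XBP1 at -0.40.

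HSPA5, the chaperone BiP, which binds and restrains the ER stress sensors, had 10237, 10203 and 10353 CPM in the combination, 6888, 6825 and 6802 CPM with SR4, 3289, 3465 and 3457 CPM with lonidamine and 791, 772 and 737 CPM with vehicle. The groups descended in that order with no overlap. A product of the single changes would have given 30364 CPM, and a sum of the single increments 9476 CPM, against 10264 ± 78.96 CPM observed (mean ± SD, n = 3). Hence the interaction was -1.56 ± 0.04 on the log2 scale (SE, adjusted p = 3.93e-22) and 789 ± 177 CPM on the linear scale (SE, adjusted p = 0.000343).

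The promoters of HSPA5 and HSP90B1 are shown because both hold the ER stress response element, and yet these genes had interactions of opposite sign. Capitals mark CCAAT and CCACG separated by any 9 bases, on either strand, in windows of the same extent and source as above. The HSPA5 window is chr9:125241294-125241593 on the - strand and the HSP90B1 window is chr12:103930160-103930459 on the + strand.
HSPA5: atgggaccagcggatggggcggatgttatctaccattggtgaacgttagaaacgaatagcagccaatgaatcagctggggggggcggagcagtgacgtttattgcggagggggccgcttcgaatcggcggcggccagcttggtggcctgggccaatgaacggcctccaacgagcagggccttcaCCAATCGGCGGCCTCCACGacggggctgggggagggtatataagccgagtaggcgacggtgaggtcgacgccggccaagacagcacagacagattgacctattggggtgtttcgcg
HSP90B1: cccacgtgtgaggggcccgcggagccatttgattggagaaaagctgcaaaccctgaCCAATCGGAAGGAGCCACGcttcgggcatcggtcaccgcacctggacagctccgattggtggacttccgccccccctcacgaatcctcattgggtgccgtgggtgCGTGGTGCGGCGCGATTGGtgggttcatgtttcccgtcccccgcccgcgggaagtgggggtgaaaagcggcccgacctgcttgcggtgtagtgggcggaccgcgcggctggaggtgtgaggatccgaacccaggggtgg
HSPA5 holds 1 match and HSP90B1 holds 2. The element was found in 6 of the 21 tested ER members that matched a RefSeq promoter, and in 0.0769% of all promoters.

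Whether a joint effect counts as more or less than additive depended on the scale for 1554 genes, 12.4% of those tested. On the linear scale 4616 genes exceeded the sum of the single increments (36.9%) and 3314 fell short of it (26.5%). Both scales gave a positive call for 3767 genes and a negative call for 3191. There were 77 genes with a negative log2 interaction and a positive linear one, and 1 with the reverse. Calls on the linear scale alone were made for 772 genes above the sum and 122 below it, and calls on the log2 scale alone for 90 positive and 492 negative interactions. Among the 77 were stress genes that lay above vehicle with either compound. ATF3, a stress-induced transcription factor, had 616, 618 and 595 CPM in the combination, 398, 409.9 and 406 CPM with SR4, 84.4, 87.9 and 84.3 CPM with lonidamine and 8.92, 6.95 and 7.66 CPM with vehicle, with -2.85 on the log2 scale and 127 ± 12.8 CPM on the linear scale (SE, adjusted p = 1.52e-09). HERPUD1, part of the ER degradation machinery, averaged 359 CPM in the combination, 112 with SR4, 86.5 with lonidamine and 19.5 with vehicle, and its linear departure was 179.6 CPM. The ER stress sensor ATF6 averaged 436 CPM in the combination, 204 with SR4, 207 with lonidamine and 68.9 with vehicle, with -0.49 on the log2 scale and 93.5 CPM on the linear scale. Also among the 77 were genes that lay below vehicle with either compound. The focal adhesion protein TNS3 averaged 78.8 CPM in the combination, 327 with SR4, 263 with lonidamine and 913 with vehicle, with -0.26 on the log2 scale and 402 CPM on the linear scale. PRSS23, a secreted serine protease, TM4SF1, a tetraspanin-like surface protein, and SMAD3, a mediator of TGF-beta signals, had linear departures of 269, 147 and 132 CPM beside log2 interactions of -0.69, -0.64 and -0.19. For TNS3 the vehicle level less both single decrements came to -323 CPM, a level that no gene can take. A positive linear departure was given there by the size of the single changes. ATF6, TNS3, PRSS23, TM4SF1 and SMAD3 were picked from the 77 after their values were seen.

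**Figure D3:**
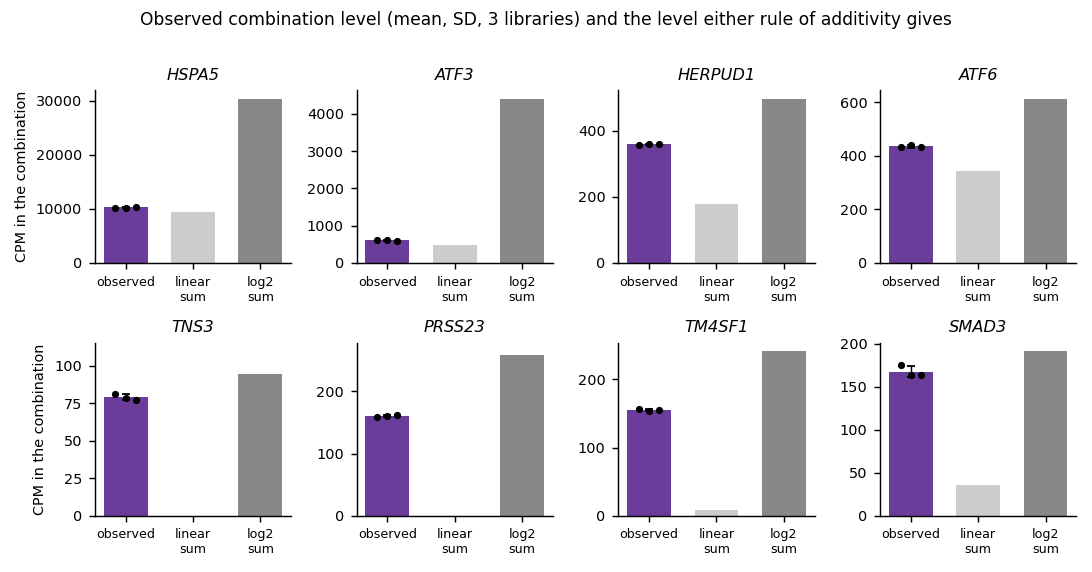
Combination level in CPM (y axis, linear from 0) of 8 genes as observed (purple bar for the mean, points for the 3 libraries, whisker for the SD), beside the level from the sum of the single increments and the level from the product of the single fold changes. For each gene the observed bar lies above the linear sum and below the product, and the linear sums of TNS3 and PRSS23, at -323 and -109 CPM, lie below the axis.

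Sterol synthesis genes had positive interactions with few exceptions. SREBP2, a transcription factor released when membranes lack sterol, controls this pathway. Of the 25 tested members, 23 had a positive interaction and 1 a negative one, with a median of 1.15. The median change against vehicle was -0.15 in the combination, -1.14 with SR4 and -0.17 with lonidamine. By the median, the genes were low with SR4 alone and near vehicle in the combination. HMGCS1, which makes HMG-CoA, had 114, 119 and 116 CPM in the combination, 47.9, 47.6 and 50.02 CPM with SR4, 92.4, 97.8 and 95.8 CPM with lonidamine and 134, 132 and 121 CPM with vehicle, and its interaction was 1.69 ± 0.069 (SE, adjusted p = 8.2e-18). The SR4 libraries were below every other library, and the combination lay between lonidamine and vehicle.

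IDI1, which isomerises isopentenyl diphosphate, had 129.7, 132 and 131 CPM in the combination, 46.3, 48.4 and 41.1 CPM with SR4, 86.2, 85.1 and 86.4 CPM with lonidamine and 112, 121 and 115 CPM with vehicle. MVK, mevalonate kinase, averaged 60.4 CPM in the combination, 19.2 with SR4, 24.8 with lonidamine and 30.3 with vehicle. Their interactions were 1.97 and 1.94. Both were below vehicle in every SR4 and lonidamine library and above vehicle in every combination library. SQLE, squalene epoxidase, averaged 236 CPM in the combination, 103 with SR4, 209.8 with lonidamine and 214 with vehicle (interaction 1.24), and INSIG1, which holds the sterol sensor in the ER, averaged 82.7 CPM in the combination, 41.1 with SR4, 96.7 with lonidamine and 120.1 with vehicle (interaction 1.32). The exception was TM7SF2, a sterol reductase, at -0.92, and SREBF2 itself was not called at 0.098 (adjusted p = 0.151). Promoter windows of the same extent and source as above were also scanned for TCACCCCAC, letters of a sterol regulatory element, on either strand. It was found in 1 of the 19 tested members that matched a RefSeq promoter, SREBF2, and in 0.43% of all promoters.

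Among fatty acid genes, 11 of 18 had a positive and 1 a negative interaction, with a median of 0.39. FASN, fatty acid synthase, averaged 391 CPM in the combination, 283 with SR4, 375 with lonidamine and 751 with vehicle, with an interaction of 1.47 ± 0.054 (SE, adjusted p = 9.14e-19). The elongase ELOVL5 averaged 536 CPM in the combination, 279.7 with SR4, 361 with lonidamine and 381 with vehicle (interaction 1.02). The desaturases FADS1 and FADS2 of polyunsaturated fats had 0.68 and 1.13. SCD, the main desaturase, was not called at -0.039 (adjusted p = 0.717). The cholesterol efflux genes ran the other way, with 5 of 7 negative and 0 positive, the efflux pump ABCA1 being at -2.19 on means of 1.14 CPM in the combination, 6.32 with SR4, 1.43 with lonidamine and 1.71 with vehicle.

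All tested genes of the division cycle lists had a positive interaction. In the G1/S and DNA replication list 37 of 37 members were positive, with a median of 1.55. In the G2/M and mitosis list 37 of 37 were positive, with a median of 1.47. By the median, every treatment lay below vehicle for both lists. The median change of the replication list against vehicle was -1.08 in the combination, -0.98 with SR4 and -1.85 with lonidamine, and that of the mitosis list was -1.13, -0.81 and -1.78 in the same order. By these medians the combination stood above lonidamine alone and near SR4 alone, where the product of the single effects would have put it far below both. All members of both lists were also positive on the linear scale. For the summed level of each list, however, the single decrements together exceeded the vehicle level. The replication sum ran from 1537 to 1602 CPM with SR4, 894 to 952 with lonidamine and 3066 to 3113 with vehicle. The mitosis sum ran from 5398 to 5569, 2617 to 2898 and 9266 to 9652 CPM in the same order. The same held for CDC6, FEN1, MCM3, MCM6, KIF11 and AURKA, but not for TPX2. Where it held, a positive linear departure was given by the size of the single changes. The linear calls of these lists are therefore largely a description of that size.

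CDC6, which loads the replicative helicase, had 80.9, 81.2 and 83.1 CPM in the combination, 55.1, 53.8 and 51.4 CPM with SR4, 25.04, 22.7 and 26.2 CPM with lonidamine and 102, 107 and 98.4 CPM with vehicle. Lonidamine was lowest, SR4 intermediate and the combination close under vehicle, with no overlap between groups. Its interaction was 2.67 ± 0.081 (SE, adjusted p = 1.25e-20). FEN1, the flap endonuclease of lagging strand synthesis, had 47.9, 50.2 and 50.1 CPM in the combination, 24.4, 30.7 and 32.6 CPM with SR4, 26.5, 27.2 and 23.3 CPM with lonidamine and 111, 105 and 105 CPM with vehicle. The combination was above both single treatments and below vehicle, and the interaction was 2.82 ± 0.11 (SE, adjusted p = 1.2e-18). MCM6, a helicase subunit, averaged 58.9 CPM in the combination, 46.1 with SR4, 31.9 with lonidamine and 119.8 with vehicle (interaction 2.27). MCM3, another subunit, had 60.7, 66.5 and 63.99 CPM in the combination, 66.4, 71.3 and 70.7 CPM with SR4, 51.5, 56.6 and 55.8 CPM with lonidamine and 238, 252 and 238 CPM with vehicle. Its combination and SR4 libraries overlapped, so its interaction of 2.02 arose with all treated groups far below vehicle and close to each other.

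The promoters of CDC6 and MCM6 are shown because E2F factors, which open S phase, are known to act on both genes. Capitals mark TTTCCCGC or TTTGGCGC on either strand. The CDC6 window is chr17:40287629-40287928 on the + strand and the MCM6 window is chr2:135876394-135876693 on the - strand.
CDC6: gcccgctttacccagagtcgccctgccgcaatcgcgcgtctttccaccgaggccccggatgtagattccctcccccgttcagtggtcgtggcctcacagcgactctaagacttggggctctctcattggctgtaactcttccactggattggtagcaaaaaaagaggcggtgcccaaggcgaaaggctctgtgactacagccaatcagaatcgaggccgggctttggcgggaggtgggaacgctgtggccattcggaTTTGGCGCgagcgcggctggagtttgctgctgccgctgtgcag
MCM6: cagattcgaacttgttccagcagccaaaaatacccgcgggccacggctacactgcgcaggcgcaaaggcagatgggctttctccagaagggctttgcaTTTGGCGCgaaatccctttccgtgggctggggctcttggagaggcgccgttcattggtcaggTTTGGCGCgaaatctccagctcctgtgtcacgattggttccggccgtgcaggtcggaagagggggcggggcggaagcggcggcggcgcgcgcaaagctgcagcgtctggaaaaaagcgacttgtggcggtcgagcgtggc
Either motif occurred in 17 of the 34 tested replication genes that matched a RefSeq promoter and in 2.27% of all promoters.

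Of the mitotic genes, TPX2, a spindle assembly factor, had 756, 736 and 767 CPM in the combination, 691, 705 and 687 CPM with SR4, 294, 317 and 313 CPM with lonidamine and 945, 911 and 917 CPM with vehicle. The lonidamine libraries were lowest, and the combination lay above both single treatments and below vehicle (interaction 1.70 ± 0.049, adjusted p = 4.06e-21). The spindle motor KIF11 averaged 131 CPM in the combination, 124 with SR4, 66.1 with lonidamine and 254 with vehicle (interaction 2.02), and the mitotic kinase AURKA averaged 102 CPM in the combination, 109.6 with SR4, 65.97 with lonidamine and 254 with vehicle (interaction 1.84). TOP2A, topoisomerase II alpha, and CCNB1, cyclin B1, had 1.35 and 1.52. BUB1, a spindle checkpoint kinase, had 1.63, and the proliferation marker MKI67 had 1.42 on means of 359 CPM in the combination, 440.5 with SR4, 274 with lonidamine and 896 with vehicle. The cyclin D1 gene CCND1, listed with ERK feedback, was negative at -0.47 ± 0.06 (SE, adjusted p = 1.42e-07) on means of 75.5 CPM in the combination, 232 with SR4, 193 with lonidamine and 429 with vehicle. The inhibitor CDKN1A was not called at 0.078 (adjusted p = 0.441).

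Among genes that averaged 3 or more in log2 CPM, the 10 most positive interactions were those of CDC6, FEN1 and 8 others. KIF24, a kinesin of the centriole, TICRR and ORC1, which act at replication origins, POLA2, a subunit of DNA polymerase alpha, CENPJ, a centriole assembly factor, MTFR2, SHCBP1 and SLFN13 had interactions between 2.32 and 2.82. CENPJ had 46.02, 46.1 and 53.5 CPM in the combination, 21.4, 19.4 and 19.4 CPM with SR4, 15.9, 15.2 and 12.3 CPM with lonidamine and 29.5, 29.9 and 31.3 CPM with vehicle, with both single treatments below vehicle and the combination above it. Nucleotide synthesis genes had 15 positive and 4 negative members of 24 (62.5% and 16.7%, against 30.8% and 30% of all tested genes). TYMS, thymidylate synthase, averaged 70.4 CPM in the combination, 123 with SR4, 76.7 with lonidamine and 281 with vehicle (interaction 1.07). RRM2, the S phase subunit of ribonucleotide reductase, had 74.6, 68.5 and 72.4 CPM in the combination, 159.8, 174 and 149 CPM with SR4, 95.6, 102 and 102 CPM with lonidamine and 581, 576 and 585 CPM with vehicle, so the combination was the lowest group although the interaction was 1.37.

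Hypoxia-inducible genes had negative interactions. These are targets of HIF transcription factors, which are stabilised when oxygen is short. Of 21 tested, 19 were negative and 0 positive, with a median of -1.39. The median change against vehicle was -0.025 in the combination, 0.92 with SR4 and 0.39 with lonidamine. VEGFA, the angiogenic growth factor, had 173, 179 and 187 CPM in the combination, 384, 342 and 369 CPM with SR4, 242, 222 and 212 CPM with lonidamine and 57.7, 66.9 and 53.8 CPM with vehicle. Every combination library lay below every SR4 and lonidamine library and above vehicle. Its interaction was -2.95 ± 0.083 (SE, adjusted p = 2.44e-21). ANGPTL4, an inhibitor of lipoprotein lipase, had 7.80, 8.02 and 6.91 CPM in the combination, 60.4, 78.02 and 58.6 CPM with SR4, 58.03, 68.6 and 57.1 CPM with lonidamine and 29.2, 32.2 and 27.5 CPM with vehicle. Both single treatments lay above vehicle, and the combination below it (interaction -4.16 ± 0.15, adjusted p = 8.27e-19). NDRG1, a stress-responsive gene of growth arrest, followed the same order, with 24.1, 21.3 and 20.6 CPM in the combination, 93.9, 115 and 92.8 CPM with SR4, 39.6, 49.1 and 42.8 CPM with lonidamine and 26.2, 28.2 and 26.5 CPM with vehicle and an interaction of -2.89. MXI1, a MYC antagonist, and ADM, the vasodilator adrenomedullin, had -2.87 and -1.61.

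Glycolysis genes were negative in 18 of 23 and positive in 1, with a median of -0.46, and the combination libraries were below all 9 others for 15 of them, against 19.1% of all tested genes. SLC2A1, the glucose transporter GLUT1, had 145, 151 and 153 CPM in the combination, 298, 323 and 282 CPM with SR4, 142, 159.5 and 145 CPM with lonidamine and 57.7, 58.96 and 49.9 CPM with vehicle. SR4 alone stood highest, and the combination overlapped lonidamine alone (interaction -2.43 ± 0.081, adjusted p = 9.23e-20). LDHA, the muscle form of lactate dehydrogenase, had 303, 301 and 276 CPM in the combination, 1046, 1166 and 1007 CPM with SR4, 691, 752 and 678 CPM with lonidamine and 1621, 1575 and 1549 CPM with vehicle. The combination was far below each single treatment, with an interaction of -0.71 ± 0.065 (SE, adjusted p = 3.17e-10) and no call on the linear scale (95.4 ± 45.7 CPM, adjusted p = 0.0706). GPI, which isomerises glucose 6-phosphate, averaged 185 CPM in the combination, 479 with SR4, 305 with lonidamine and 462 with vehicle (interaction -0.78), and the neuronal enolase ENO2 averaged 32.97 CPM in the combination, 78.97 with SR4, 48.1 with lonidamine and 34.2 with vehicle (interaction -1.75). In HK2, the inducible hexokinase, the combination was the highest group, at 116 CPM in the combination, 95.02 with SR4, 29.001 with lonidamine and 6.09 with vehicle, with an interaction of -1.96 and a linear departure of -1.91 CPM (adjusted p = 0.695). The lactate exporter SLC16A3 was the positive member at 0.18 on means of 68.5 CPM in the combination, 147 with SR4, 146 with lonidamine and 355 with vehicle, with every treatment below vehicle. This call was lost without combination replicate 2, SR4 replicate 3, vehicle replicate 2 or vehicle replicate 3 (interaction 0.13 to 0.17) and under scaling by total counts (0.15), each with an adjusted p of 0.05 or more.

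Respiratory chain subunits had small interactions, none of them reaching 1 log2 unit. The subunits of complex I had 12 positive and 4 negative interactions of 38, which is 31.6% and 10.5%, against 30.8% and 30% of all tested genes. NDUFS1, the largest subunit, averaged 256 CPM in the combination, 195 with SR4, 184 with lonidamine and 211 with vehicle (interaction 0.58), and NDUFA5 averaged 64.9 CPM in the combination, 42.04 with SR4, 51.95 with lonidamine and 55.9 with vehicle (interaction 0.73). Complexes III and IV had 6 positive and 8 negative of 20 (30% and 40%, with 5 negative without SR4 replicate 2), and ATP synthase had 7 and 1 of 16 (43.8% and 6.25%). The positive shares of complexes I, III and IV were thus near that of all genes. CYCS, cytochrome c, was the most positive of them, with 739, 735 and 768 CPM in the combination, 413, 429.7 and 433 CPM with SR4, 385, 429 and 405 CPM with lonidamine and 455, 467 and 461 CPM with vehicle and an interaction of 0.997 ± 0.053 (SE, adjusted p = 3.39e-15). The tricarboxylic acid cycle had 11 positive and 2 negative of 20 (55% and 10%), SDHA, the catalytic subunit of complex II, being at 0.70. IDH1, the cytosolic isocitrate dehydrogenase, was far from the rest, with 124, 124 and 134 CPM in the combination, 119.6, 115 and 132 CPM with SR4, 367, 362 and 352 CPM with lonidamine and 117, 109 and 113 CPM with vehicle. Lonidamine alone stood far above vehicle, and the combination and SR4 groups overlapped, at an interaction of -1.61 ± 0.066 (SE, adjusted p = 1e-17).

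MPC1, a subunit of the pyruvate carrier that lonidamine blocks, had 70.8, 65.1 and 66.98 CPM in the combination, 17.3, 17.4 and 17.6 CPM with SR4, 13.6, 17.9 and 17.4 CPM with lonidamine and 9.02, 10.6 and 8.55 CPM with vehicle. The combination was far above each single treatment, and its interaction was 1.16 ± 0.15 (SE, adjusted p = 1.31e-07). Its partner MPC2 was not called at 0.12 (adjusted p = 0.449). The pyruvate dehydrogenase kinases PDK1 and PDK3, which shut the complex, had -0.67 and -1.62, while the complex subunits DLAT and PDHX had 0.62 and 0.53. The PDK3 call was lost without combination replicate 3 (-1.23, adjusted p = 0.0909) and without SR4 replicate 2 (-1.19, adjusted p = 0.0977). Of 13 mitochondrial chaperones and proteases, 6 had a positive and 2 a negative interaction (46.2% and 15.4%), with a median of 0.14. The negative members were the protease LONP1 at -0.79 and the chaperone HSPA9 at -0.57, with the combination above all 9 others for both.

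Ribosome assembly factors had mostly positive interactions and ribosomal proteins mostly negative ones. Of 31 ribosome biogenesis genes, 24 had a positive and 2 a negative interaction (median 0.38). Of 52 cytosolic ribosomal protein genes, 49 were negative and 0 positive (median -0.35), and none reached 1 log2 unit. NOLC1, a nucleolar chaperone of ribosome assembly, had 813, 812 and 796 CPM in the combination, 494, 481 and 473 CPM with SR4, 361, 376 and 389.7 CPM with lonidamine and 474, 487 and 469 CPM with vehicle. The combination exceeded all other libraries (interaction 1.08 ± 0.049, adjusted p = 9.95e-17). NCL, nucleolin, averaged 982 CPM in the combination, 1299.8 with SR4, 969 with lonidamine and 1677 with vehicle (interaction 0.39). NOP58, a core small nucleolar ribonucleoprotein, averaged 298 CPM in the combination, 194 with SR4, 146 with lonidamine and 182 with vehicle (interaction 0.94). RPL12, of the large ribosomal subunit, averaged 683 CPM in the combination, 890.3 with SR4, 676 with lonidamine and 577 with vehicle (interaction -0.61), and outside the lists the elongation factor EEF1A1 averaged 10365 CPM in the combination, 13768 with SR4, 11046 with lonidamine and 9006 with vehicle (interaction -0.70). EEF1A1 had the most negative departure of all in CPM, -5443 ± 290.1 (SE, adjusted p = 3.06e-15).

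Proteasome subunits had 22 positive and 0 negative interactions of 31, with a median of 0.29. PSMD12, a regulatory particle subunit, averaged 134 CPM in the combination, 80.2 with SR4, 84.6 with lonidamine and 109 with vehicle (interaction 1.11). PSMC4, an ATPase of the regulatory particle, had the most positive departure in CPM, 1578 ± 94.7 (SE, adjusted p = 3.77e-14), on 4669.7, 4778 and 4751 CPM in the combination, 3031, 3203 and 2965 CPM with SR4, 2444, 2517 and 2485 CPM with lonidamine and 2404, 2374 and 2402 CPM with vehicle. SUPT5H and PAF1, which control transcript elongation, had 1244 and 888 CPM. All 3 genes lie close together on chromosome 19, where the vehicle levels of PANC1 stood far above those of BXPC3, at 2393 against 157 CPM for PSMC4. KRT8, an epithelial keratin, had 831 CPM with the combination the lowest group, on means of 371 CPM in the combination, 966 with SR4, 479 with lonidamine and 1905 with vehicle. The single decrements of KRT8 together exceeded its vehicle level, so a positive departure was given by their size. Such ranks in CPM follow the abundance of a gene. Cytosolic heat shock genes had 10 positive and 3 negative members of 18 (55.6% and 16.7%, against 30.8% and 30% of all tested genes). Negative members numbered 6 under scaling by total counts and 5 without vehicle replicate 1. BAG3, a co-chaperone of selective autophagy, had 1.38 on means of 165 CPM in the combination, 111 with SR4, 110.04 with lonidamine and 193 with vehicle.

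Signalling outputs were mostly negative. Of 18 ERK feedback genes 14 were negative (77.8%) and 0 positive (median -1.17), against 30% and 30.8% of all tested genes. DUSP5, a nuclear ERK phosphatase, had 158, 152 and 153 CPM in the combination, 192, 186 and 183 CPM with SR4, 125, 130.3 and 130.4 CPM with lonidamine and 37.3, 38.7 and 38.9 CPM with vehicle, and its interaction was -2.03 ± 0.063 (SE, adjusted p = 1.87e-20). SPRY4, an inhibitor upstream of RAS, had 35.2, 33.2 and 31.6 CPM in the combination, 54.4, 47.05 and 45.6 CPM with SR4, 119, 119 and 121 CPM with lonidamine and 51.7, 50.6 and 49.6 CPM with vehicle. Lonidamine alone raised it above all other libraries, and the combination lay below vehicle (interaction -1.79). EPHA2, a receptor kinase, and the transcription factor ETV5 had -1.13 and -1.14. Outside the list, ERRFI1, an inhibitor of the EGF receptor, averaged 1895 CPM in the combination, 3189 with SR4, 1387 with lonidamine and 579.8 with vehicle (interaction -2.01). Of 22 YAP targets, 15 were negative (68.2%) and 2 positive (9.09%), with a median of -0.65. CTGF, a matricellular growth factor, had 738, 716 and 780.4 CPM in the combination, 2544, 2673 and 2378 CPM with SR4, 258, 292 and 261 CPM with lonidamine and 227, 235 and 234 CPM with vehicle. SR4 alone stood far above all others, and the combination lay between SR4 and lonidamine (interaction -1.99 ± 0.064, adjusted p = 5.15e-20). CYR61, its relative, averaged 1452 CPM in the combination, 3043 with SR4, 663 with lonidamine and 605 with vehicle (interaction -1.20). AMOTL1, an inhibitor of YAP, was positive at 1.18.

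Of 21 immediate early genes, 7 were positive (33.3%) and 9 negative (42.9%), against 30.8% and 30% of all tested genes. EGR1 had 8.94, 8.51 and 10.2 CPM in the combination, 2.72, 2.13 and 2.89 CPM with SR4, 5.36, 5.94 and 6.25 CPM with lonidamine and 26.3, 21.4 and 20.2 CPM with vehicle, with an interaction of 3.78 ± 0.22 (SE, adjusted p = 2.28e-14) at counts lower than those of most genes named. MYC averaged 189.7 CPM in the combination, 264 with SR4, 71.6 with lonidamine and 86.99 with vehicle (interaction -0.20). KLF6 averaged 252 CPM in the combination, 445 with SR4, 241 with lonidamine and 227 with vehicle (interaction -0.90), and IER3 averaged 36.7 CPM in the combination, 78.4 with SR4, 165 with lonidamine and 95.5 with vehicle (interaction -1.89). Of 11 NF-kB targets 6 were negative (54.5%) and 0 positive, the inhibitor NFKBIA being at -0.84, the cytokine LIF at -1.86 and the adhesion molecule ICAM1 at -1.51 on means of 62.7 CPM in the combination, 136 with SR4, 201 with lonidamine and 153 with vehicle.

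TGF-beta and mesenchymal genes had 12 negative and 6 positive interactions of 23 (52.2% and 26.1%, against 30% and 30.8% of all tested genes). The combination was below all 9 others for 14 of the 23, against 19.1% of all tested genes. The integrin subunit ITGA5 had -1.25, and VIM had -0.43. THBS1, thrombospondin, averaged 33.8 CPM in the combination, 67.4 with SR4, 74.2 with lonidamine and 52.1 with vehicle (interaction -1.51). Outside the list, the integrin subunit ITGA3 had -1.90. COL1A1 was positive at 1.80 with means of 16.2 CPM in the combination, 12.2 with SR4, 31.3 with lonidamine and 81.9 with vehicle. COL1A1 makes up most of the fibroblast marker sum given above, and of the other 5 fibroblast markers COL1A2 and DCN were at 0 in every library and LUM in all but 1 library. COL3A1 ran from 1.08 to 1.40 CPM in the combination, from 1.49 to 2.2 CPM with SR4, from 1.85 to 2.47 CPM with lonidamine and from 3.18 to 4.71 CPM with vehicle. PDGFRB ran from 0.187 to 0.391 CPM in the combination, from 0.745 to 0.943 CPM with SR4, from 0.524 to 0.658 CPM with lonidamine and from 1.23 to 2.22 CPM with vehicle. Like COL1A1, both were highest with vehicle, and neither interaction was called. The part of these markers in the COL1A1 result was not tested.

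NRF2 targets, the antioxidant enzymes, were negative in 15 of 21 and positive in 3 (median -0.53). HMOX1, heme oxygenase, had 562, 579 and 549.5 CPM in the combination, 578, 630.1 and 579 CPM with SR4, 473, 491 and 491 CPM with lonidamine and 86.2, 83.1 and 80.2 CPM with vehicle. The treated groups were near each other and all far above vehicle (interaction -2.62 ± 0.058, adjusted p = 1.27e-23). The ferritin heavy chain FTH1 averaged 3489 CPM in the combination, 3397 with SR4, 2846 with lonidamine and 1164 with vehicle (interaction -1.25), TXNRD1, thioredoxin reductase, had -1.24, and GSR, glutathione reductase, was positive at 0.96. Autophagy and lysosome genes had 18 negative and 5 positive of 32 (56.2% and 15.6%, against 30% and 30.8% of all tested genes). The kinase ULK1, which starts autophagy, averaged 411 CPM in the combination, 357 with SR4, 228 with lonidamine and 60.5 with vehicle (interaction -1.71), and the cargo receptor SQSTM1 averaged 2655 CPM in the combination, 2269.8 with SR4, 1785 with lonidamine and 645 with vehicle (interaction -1.24). For MAP1LC3B, the autophagosome protein LC3B, the log2 interaction was -0.96 while the linear departure was not called, at -12.9 ± 13.4 CPM (SE, adjusted p = 0.413), on means of 576 CPM in the combination, 337 with SR4, 359 with lonidamine and 108 with vehicle. PSAP, the lysosomal saposin precursor and not a member of the list, had a linear departure of -2119.8 CPM.

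Among p53 targets 6 were positive and 10 negative of 24, against 30.8% and 30% of all tested genes. Apoptosis regulators had 9 negative and 1 positive of 19 (47.4% and 5.26%). TNFRSF10B, the TRAIL receptor DR5, averaged 168 CPM in the combination, 146 with SR4, 192 with lonidamine and 45.95 with vehicle (interaction -1.86). PMAIP1, the pro-apoptotic NOXA, averaged 20.2 CPM in the combination, 26.3 with SR4, 23.8 with lonidamine and 5.48 with vehicle (interaction -2.50). BCL2L1, which encodes the protective BCL-XL, had 201, 197 and 207 CPM in the combination, 299, 288 and 300.2 CPM with SR4, 388, 388 and 392 CPM with lonidamine and 204, 183 and 182 CPM with vehicle. Both single treatments lay above vehicle, and the combination overlapped it (interaction -1.59 ± 0.057, adjusted p = 5.57e-19). BIRC2, a ubiquitin ligase that restrains cell death, was the positive member at 0.63.

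**Figure D4:**
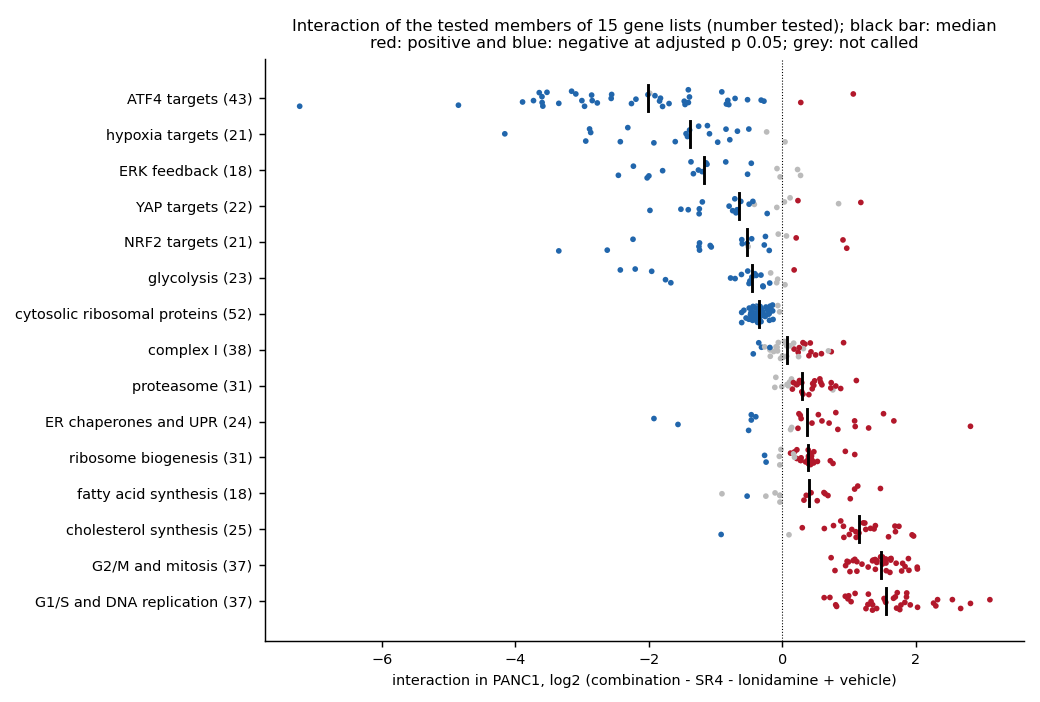
Log2 interaction in PANC1 (x axis) of every tested member of 15 gene lists (y axis, number tested in parentheses), each point 1 gene, coloured red for a positive and blue for a negative call at adjusted p 0.05 and grey for none, with the list median as a black bar. The leftmost point is INHBE, which had no counts with vehicle. The medians run from -2.02 for ATF4 targets to 1.55 for DNA replication.

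Outside the lists, the most negative genes included several that were near silent with vehicle and stood in the same range with each compound as in the combination. LAMP3, a lysosomal membrane protein, had 81.4, 86.9 and 81.9 CPM in the combination, 62.2, 60.99 and 62.4 CPM with SR4, 121, 132 and 124 CPM with lonidamine and 3.93, 3.25 and 2.89 CPM with vehicle, with an interaction of -4.79 ± 0.11 (SE, adjusted p = 5.29e-23). BEX2, SLFN5 and the neurotrophin receptor NGFR had -4.49, -3.85 and -3.77. RAB39B, a neuronal RAB GTPase, had 174, 165 and 174 CPM in the combination, 84.1, 73.6 and 81.5 CPM with SR4, 65.4, 74.3 and 73.7 CPM with lonidamine and 1.70, 1.79 and 2.78 CPM with vehicle, where the combination was somewhat above the sum of the single levels. Its log2 interaction was -3.98 and its linear departure 22.2 ± 5.22 CPM (SE, adjusted p = 0.000557). In C10orf10 and CX3CL1 the combination fell below vehicle. C10orf10, also called DEPP1, had 2.10, 2.15 and 2.24 CPM in the combination, 55.1, 61.4 and 55.8 CPM with SR4, 9.61, 11.01 and 8.14 CPM with lonidamine and 20.4, 20.2 and 15.2 CPM with vehicle, and CX3CL1, the chemokine fractalkine, had 8.77, 9.97 and 6.91 CPM in the combination, 24.5, 27.7 and 24.1 CPM with SR4, 117, 102 and 113 CPM with lonidamine and 24.1, 26.5 and 22.99 CPM with vehicle. Their interactions were -3.76 and -3.75.

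In 93 genes (0.743%) both single treatments lay above vehicle and the combination below it with no overlap of libraries, and in 136 genes (1.09%) the mirror image held. These patterns, and the one that follows, were defined after values were seen, and each implies a negative or a positive interaction by construction. ANGPTL4 and NDRG1 belonged to the first, as did PAQR8, a membrane progestin receptor, with 8.42, 8.31 and 7.66 CPM in the combination, 21.6, 20.3 and 20.3 CPM with SR4, 28.1, 24.6 and 23.7 CPM with lonidamine and 8.60, 11.3 and 11.3 CPM with vehicle, and CLDN7, a tight junction claudin, with 8.33, 9.48 and 6.26 CPM in the combination, 27.4, 29.6 and 31.3 CPM with SR4, 14.9, 12.7 and 13.3 CPM with lonidamine and 11.9, 11.2 and 10.3 CPM with vehicle. CENPJ, MTFR2, IDI1 and MVK belonged to the second. A further 81 genes changed by less than 0.25 log2 units with each compound and by at least 1 in the combination, 44 with a positive and 30 with a negative interaction called. TOP3A, a topoisomerase, had 107, 103 and 114 CPM in the combination, 40.1, 40.9 and 40.8 CPM with SR4, 29.4, 35.6 and 36.2 CPM with lonidamine and 42.8, 38.2 and 37.2 CPM with vehicle and belonged to the first kind with MANF. S100A6, a calcium-binding protein, had 237, 234 and 225 CPM in the combination, 536, 559 and 507 CPM with SR4, 453, 452 and 450.5 CPM with lonidamine and 474, 464 and 488 CPM with vehicle and belonged to the second, as did the metallothionein MT2A, averaging 49.04 CPM in the combination, 105 with SR4, 100.3 with lonidamine and 100.5 with vehicle.

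The interaction was compared with that of BXPC3 in 1 fit of all 24 libraries, which tests the difference of both interactions. Of the 3 BXPC3 SR4 count columns, 1 bears a replicate number that differs from that of the remaining sample title. It was placed by its line and treatment only, so every BXPC3 interaction rests in part on that placing. Of 13930 genes tested, 2466 had a more positive interaction in PANC1 (17.7%) and 3000 a more negative one (21.5%). This balance of directions was not stable. With DESeq2 size factors in the same fit it turned, to 2984 more positive and 2556 more negative, and it also turned when 1 PANC1 library was left out, for 10 of the 12 libraries. Without combination replicate 2, for example, 3038 genes were more positive and 2394 more negative. The median difference over all genes moved with it, being -0.050 in the full fit, 0.030 with DESeq2 size factors and between -0.053 and 0.044 with 1 library left out. BXPC3 on its own had 3061 positive (23.7%) and 3298 negative (25.5%) interactions of 12920 tested. Opposite signs, each called and with a called difference, were found for 1062 genes, 640 of them negative in PANC1 and 422 positive. Values that follow are from this joint fit, whose scaling moved PANC1 values by about -0.07.

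Hypoxia and glycolysis genes differed between the lines. The median interaction of the hypoxia list was -1.46 in PANC1 and 0.52 in BXPC3, and 19 of 21 members were more negative in PANC1, against 21.5% of all tested genes. For the glycolysis list the medians were -0.53 in PANC1 and 0.37 in BXPC3, with 19 of 23 more negative in PANC1 and 2 more positive. LDHA had an interaction of -0.78 in PANC1 and 1.70 in BXPC3, where it averaged 519.99 CPM in the combination, 337 with SR4, 463 with lonidamine and 973 with vehicle. SLC2A1 had -2.50 in PANC1 and 0.37 in BXPC3. Mitosis genes were positive in both lines, with medians of 1.40 in PANC1 and 0.74 in BXPC3. Of the 37, 25 were more positive in PANC1. The replication medians were 1.48 in PANC1 and 1.82 in BXPC3, with 17 of 37 more negative in PANC1. With 1 PANC1 library left out, 14 to 16 replication genes were more negative there. Ribosome biogenesis medians were 0.32 in PANC1 and -0.27 in BXPC3, with 23 of 31 more positive in PANC1, against 17.7% of all tested genes.

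For the stress, sterol and YAP lists the medians of both lines had the same sign, while many members differed. ATF4 targets had medians of -2.08 in PANC1 and -1.85 in BXPC3, with 13 members more positive and 21 more negative in PANC1, together 79.1% of the list against 39.2% of all tested genes. Cholesterol genes had 1.08 in PANC1 and 1.35 in BXPC3, with 14 of 25 more negative in PANC1 (56%) and 3 more positive (12%). With 1 PANC1 library left out, 10 to 14 cholesterol genes and 17 to 22 ATF4 targets were more negative in PANC1. YAP targets had -0.72 in PANC1 and -0.88 in BXPC3, with 11 of 22 more positive in PANC1 (50%) and 2 more negative (9.09%).

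**Figure D5:**
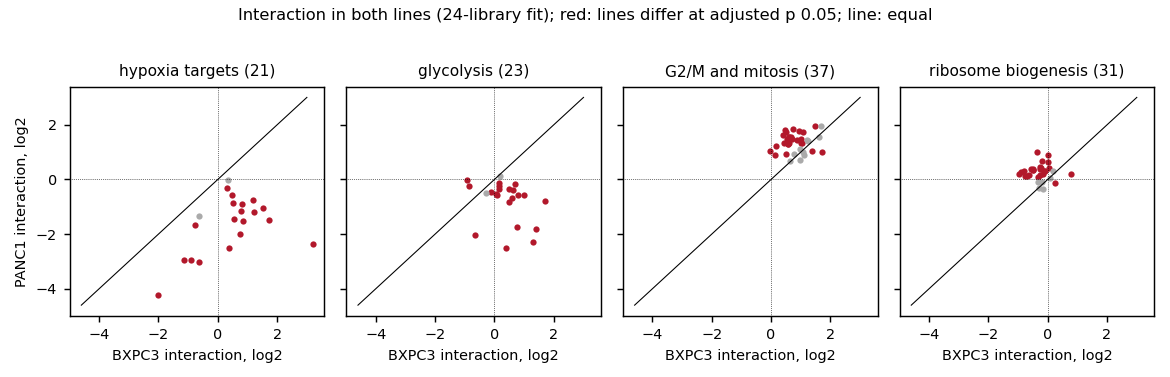
Log2 interaction in PANC1 (y axis) against that in BXPC3 (x axis) from the 24-library fit for the members of 4 gene lists, each point 1 gene, red where the lines differ at adjusted p 0.05, with the line of equal values. Most hypoxia and glycolysis genes lie below the line, and most mitosis and ribosome biogenesis genes above it.

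Of single genes, LAMP3 had an interaction of -4.86 in PANC1 and 0.40 in BXPC3, where it averaged 206 CPM in the combination, 111 with SR4, 53.1 with lonidamine and 37.7 with vehicle. PLIN2, which coats lipid droplets, had 84.7, 85.4 and 83.6 CPM in the combination, 84.3, 85.6 and 81.7 CPM with SR4, 106, 113 and 104 CPM with lonidamine and 18.6, 19.95 and 17.4 CPM with vehicle in PANC1, with an interaction of -2.58 there and 1.40 in BXPC3. ACP7, an acid phosphatase, had -3.63 in PANC1 and 0.49 in BXPC3. HSPA5 had -1.63 in PANC1 and 0.27 in BXPC3, where it averaged 2525 CPM in the combination, 1897 with SR4, 1295 with lonidamine and 1170.4 with vehicle. On the positive side CHKA, the choline kinase that starts phosphatidylcholine synthesis, had 136, 137 and 151 CPM in the combination, 61.9, 73.7 and 63.7 CPM with SR4, 54.4, 53.04 and 48.7 CPM with lonidamine and 89.3, 84.9 and 87.96 CPM with vehicle in PANC1. Its interaction was 1.77 in PANC1 and -0.53 in BXPC3. ACSS1, a mitochondrial acetyl-CoA synthetase, had 2.09 in PANC1 and -0.31 in BXPC3, and the ERK phosphatase DUSP7 had 1.22 in PANC1 and -1.15 in BXPC3. For SYBU and ALDH1L2 both lines were negative, at -1.35 and -3.23 in PANC1 and -3.92 and -5.51 in BXPC3.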

How the data were processed

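mRNA libraries (KAPA kit, per the labels' protocols) of 12 PANC1 and 12 BXPC3 samples had been sequenced. The authors deposited 1 table of raw read counts per gene for each line, with hg38 coordinates; STAR 2.7.8a, Partek, DESeq2 and GRCh38/hg38 are named in the submitters' processing notes, and no source used here says whether counting used strand, so reads of overlapping genes cannot be told apart. A floor of 3 counts per vehicle library was used for the INHBE and FGF21 values that name it and the list median beside them. The tests and figures used counts without that floor. PANC1 library totals of 8873041 to 11822495 counts set the precision of low genes.

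Counts were tested with edgeR 4.0.16 (quasi-likelihood, TMM scaling, filterByExpr with a minimum count of 10) in R 4.3.3, with 4 groups and no covariate, and Benjamini-Hochberg adjustment over all tested genes at 0.05. CPM were computed from the counts with TMM-scaled library sizes. The linear departure, combination minus SR4 minus lonidamine plus vehicle in fitted CPM, was tested by a Wald t statistic with a delta-method SE. Its degrees of freedom were the 8 residual ones plus the prior ones that the quasi-likelihood fit estimated over genes. The lines were compared in 1 fit of 24 libraries and 8 groups. The log2 test, the linear test and the test of the line difference were tried on simulated data under the main settings. The alternative settings were not simulated. For the linear test, false calls were not counted over genes whose single decrements together exceeded the vehicle level. Replicates of a group differed by more than counting noise (chi-square per degree of freedom 1.35 to 3.86). All were counted as separate samples, although this spread cannot show whether they came from separate cultures.

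Genes named are the 10 most positive and negative interactions among genes averaging 3 or more in log2 CPM, the 5 most positive and negative linear departures and line differences, up to 4 members per list by adjusted p, and a panel; other genes were chosen after their values were seen, and not every gene so picked is reported here. Members and lists were chosen with earlier results of these data known. Lists are described by counts and medians, with no set test. Alternatives were DESeq2 size factors, total counts, no filter, the DESeq2 1.42.0 Wald test, a replicate block, the linear scale and each PANC1 library left out. Promoter windows are RefSeq's on GRCh38.p14.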

Additional observations from a re-analysis of the deposited data

Results flagged for a closer look

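For 16 genes named in the text, the interaction in PANC1 differed from that in BXPC3 by the test of the difference in the 24-library fit (edgeR's quasi-likelihood fit, adjusted after Benjamini and Hochberg). Values are PANC1 minus BXPC3 on the log2 scale, each from 3 libraries per group. No explanation of these differences was tested. These are the genes for which a difference between the lines is given. Of a list of 168 genes drawn up for naming, 135 differed by this test, 53 more positive and 82 more negative in PANC1. Some genes named in the text, uncalled ones among them, were not on that list. Among all tested genes 39.2% differed, 17.7% more positive and 21.5% more negative. Many of the named genes were picked by their interaction or after their values were seen, so these counts are a description.

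The interaction of LAMP3 differed by -5.25, NGFR differed by -5.04, ACP7 by -4.12, PLIN2 by -3.98 and SLFN5 by -3.75. SLC2A1 differed by -2.87, LDHA by -2.47, HSPA5 by -1.90 and IDH1 by -2.41. In the other direction SYBU differed by 2.57, ACSS1 by 2.40, DUSP7 by 2.37, CHKA by 2.30, ALDH1L2 by 2.28, NOLC1 by 1.39 and BAG3 by 1.80. LAMP3, NGFR, ACP7, PLIN2, SLFN5, SYBU, ACSS1, DUSP7, CHKA and ALDH1L2 were named for the size of this difference, so their sizes are a description, and the other 6 were picked after their values were seen. NGFR had an interaction of -3.84 in PANC1 and 1.20 in BXPC3, SLFN5 had -3.92 in PANC1 and -0.17 in BXPC3, NOLC1 had 1.02 in PANC1 and -0.38 in BXPC3, and BAG3 had 1.31 in PANC1 and -0.49 in BXPC3. IDH1 had -1.68 in PANC1 and 0.73 in BXPC3.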

How the results depend on the processing

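Counts of called interactions stayed within 1.5 times under every alternative run. Leaving out each PANC1 library gave 3709 to 3909 positive and 3588 to 3684 negative interactions, and 2387 to 3038 positive and 2363 to 2955 negative differences between the lines, with more positive than negative ones for 10 of 12 libraries left out. Total-count scaling gave 3654 positive and 3983 negative, against 3858 and 3760, and shifted the median of all genes to -0.038. With DESeq2 size factors the line differences were 2984 positive and 2556 negative, and with the DESeq2 Wald test 2762 and 2394, against 2466 and 3000, so the balance of directions there is not fixed, and the cause was not tested. No list median changed sign under DESeq2 size factors or total counts. In the joint fit of both lines the complex I median in PANC1 was -0.0044, against 0.063 in the fit of PANC1 alone.

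On the linear scale the sign turned for HSPA5 (789 CPM), HERPUD1 (179.6), XBP1 (13.2), ATF3 (127), ATF6 (93.5), TNS3 (402), PRSS23 (269), TM4SF1 (147), SMAD3 (132), SCD (50.03), CCND1 (79.5), CDKN1A (-4.46), LDHA (95.4), PDK3 (0.151), NGFR (4.86), TXNIP (-1.16) and RAB39B (22.2), by the construction of that scale. Of these SCD, CDKN1A, LDHA, PDK3, NGFR and TXNIP were not called on that scale. HK2 (-1.91), MAP1LC3B (-12.9) and ALDH1L2 (-2.05) lost their call there, and SREBF2 gained one (20.1). With 1 library left out, SCD, not called, ranged from -0.11 to 0.071, the interferon median from -0.17 (without vehicle replicate 1) to 0.17, and the immediate early median from -0.064 to 0.0042 (without SR4 replicate 1); the cause was not tested.

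The replicate block gave 3835 positive and 3719 negative interactions in PANC1. Replicate numbers did not pair the libraries. Deviations of same-numbered libraries correlated at -0.26 to 0.13 (4 of 18 over 0.1), and 3 of 12 libraries correlated best with their own number. Linear departures were not run under the block or the DESeq2 Wald test. Intervals cover the spread between libraries only, and low counts limit genes under a few CPM.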

Other observations

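Interferon genes showed no common direction, with 7 positive and 6 negative interactions of 21 against 30.8% and 30% of all tested genes. IFIT2, an antiviral protein, had 6.14, 5.28 and 5.61 CPM in the combination, 25.04, 21.9 and 25.2 CPM with SR4, 13.95, 13.98 and 13.98 CPM with lonidamine and 12.8, 13.3 and 12.99 CPM with vehicle, an interaction of -2.18 ± 0.15 (SE, adjusted p = 1.12e-12 by edgeR). Its relative IFIT1 averaged 2.31 CPM in the combination, 6.82 with SR4, 4.52 with lonidamine and 28.6 with vehicle, with an interaction of 1.09, and all treated groups below vehicle. STAT2, which carries the interferon signal, averaged 109 CPM in the combination, 53.5 with SR4, 53.2 with lonidamine and 33.2 with vehicle (interaction 0.35).

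Nuclear long RNAs averaged more than vehicle in every treated group. NEAT1, the scaffold of paraspeckles, averaged 582 CPM in the combination, 591 with SR4, 374 with lonidamine and 126 with vehicle (interaction -1.60), and MALAT1, of nuclear speckles, averaged 1413 CPM in the combination, 1486 with SR4, 1201 with lonidamine and 671 with vehicle (interaction -0.91). The snoRNA host GAS5 averaged 325 CPM in the combination, 312 with SR4, 149.9 with lonidamine and 52.7 with vehicle (interaction -1.45). Libraries of a group differed widely in these RNAs. Summed over the list of 9 nuclear RNAs and snoRNA hosts, they ran from 2179 to 3202 CPM with SR4 and 1643 to 2248 with lonidamine. The sums ran from 2768 to 2844 CPM in the combination and 824 to 1056 with vehicle. The list median was -0.34, and -0.17 without lonidamine replicate 1. The part of RNA quality in these levels was not tested. Of the metallothioneins, MT1X averaged 17.2 CPM in the combination, 4.80 with SR4, 6.71 with lonidamine and 6.48 with vehicle (interaction 1.79), opposite in sign to MT2A, and reads of these close copies may be shared. ARRDC3, an arrestin-domain protein, averaged 105 CPM in the combination, 137 with SR4, 132 with lonidamine and 54.6 with vehicle (interaction -1.66), and its relative TXNIP was not called at 0.26 (adjusted p = 0.589 by edgeR). Mitochondrial ribosome genes had 16 positive and 4 negative interactions of 32 (50% and 12.5%, against 30.8% and 30% of all tested genes), none reaching 1 log2 unit.

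A run of neighbouring genes on chromosome 19, from SAMD4B at 39342396 to AKT2 ending at 40285536 on hg38, was noticed after the linear ranking had been seen. Of 21 tested genes there, 19 had a level in BXPC3, and for 18 of these the PANC1 vehicle level was at least 5 times that of BXPC3, with a median ratio of 11.7 and a range of 4.54 to 130. The region is known to be amplified in PANC1, but DNA copy number was not measured here and its part was not tested. The interactions within the run were 7 positive and 8 negative, from -1.66 to 0.77, so its genes did not move as a block. PAF1, MED29 and PSMC4 had 0.77, 0.67 and 0.57, while DYRK1B and FCGBP had -1.55 and -1.66.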
